A study of Homo sapiens with 30 samples.

Results

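The loci described here are those of 5 pioneer transcription factor genes, FOXA1, FOXA2, FOXA3, GATA4 and GATA6. Their members are the rows of the deposited region lists that have at least 1 base within 100 kb of the transcription start site (TSS) given for each gene on hg19, rounded to 1 kb. These sites were chr14:38064000 for FOXA1, chr20:22565000 for FOXA2, chr19:46367000 for FOXA3, chr8:11562000 for GATA4 and chr18:19749000 for GATA6. Of 112903 deposited rows, 140 were members. They comprised 79 of the 89929 regions that the authors listed as different between genotypes, and 61 of the 22974 regions in 9 clusters of wild-type peaks. The assay was ATAC-seq, where a transposase cuts open DNA and tags its ends. HNF6 knockout cells were set against wild-type control cells. Both were HUES8, an established human embryonic stem cell line, taken through the same in vitro pancreatic differentiation. HNF6, also called ONECUT1, is a transcription factor that acts while liver and pancreas form. The knockout and the control groups each had 3 samples at each of 5 stages, 30 samples in all. The stages were ESC (undifferentiated cells) and then, in order, DE (definitive endoderm), GT (primitive gut tube), PE (pancreatic endoderm) and PP (pancreatic progenitors). Lists of differences do not allow these cell type labels to be checked against markers. The labels do not give the number of knockout clones. They also leave unsaid whether samples of one group were differentiated separately, and their spread may therefore be technical.

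FOXA proteins carry a winged-helix domain and GATA proteins carry zinc fingers. Both families are known as pioneer factors, because they can bind their sites in closed chromatin before other regulators do. FOXA1 and FOXA2 act early in endoderm and are needed together for pancreas and liver formation in mice, and FOXA3 is a related family member that is prominent in liver. GATA4 and GATA6 act in definitive endoderm and in the early pancreas, and heterozygous loss of GATA6 is a known cause of pancreatic agenesis in humans. Accessibility near a gene is not its expression, which ATAC-seq does not measure.

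Every listed region carries 3 knockout and 3 control values, which are whole numbers made by the authors, and the -log10 p of the authors' own test, which is at least 5 in every row. The labels do not say whether these are raw or rescaled numbers of reads, and the depth of each sample is unknown. The authors' test is not named, so how far its -log10 p takes in the spread of replicates is unknown. A high -log10 p does not by itself show that replicates agree. The DE region chr14:38080201-38080750 at FOXA1 was listed with 5.06 although its values overlapped (log2 ratio 1.02, SE 0.76). Ratios below are log2 of the mean knockout value over the mean control value, with 1 added to each mean. A positive ratio means higher in the knockout. The SE comes from the 3 and 3 log2 values. A scaled ratio, where given, is the same with each value first divided by its library's median over the regions listed at that stage. These regions were all listed as different, so the median carries the balance of the knockout and control lists as well as any depth. At PP, 24770 regions were in the knockout list and 3169 in the control list. No test of single regions was added, since a region is listed because the authors found a difference, and 3 values against 3 cannot give a two-sided p under 0.1 in an exact permutation test. An unlisted region is one that did not enter a list, which does not show equal accessibility. As a check of the labels, knockout means were at most 1.88% of control in 6 regions at 4 stages, picked for these values. They lie between 53072851 and 53082400 on chromosome 15, a stretch that is known to hold ONECUT1. The stages were ESC, DE, PE and PP. GT had 0 such regions, so its labels were not checked in this way.

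Promoter sequence is shown for 3 of the 5 genes, though listed or cluster regions lie next to the TSS of every gene. The RefSeq promoter table (build GRCh38.p14) matched FOXA1, FOXA3 and GATA6. The 250 bases before the gene start are given 5′ to 3′ on the gene's strand, with each CG pair in capitals. They lie at chr14:37595250-37595499 (minus strand), chr19:45864076-45864325 (plus strand) and chr18:22169339-22169588 (plus strand).
FOXA1: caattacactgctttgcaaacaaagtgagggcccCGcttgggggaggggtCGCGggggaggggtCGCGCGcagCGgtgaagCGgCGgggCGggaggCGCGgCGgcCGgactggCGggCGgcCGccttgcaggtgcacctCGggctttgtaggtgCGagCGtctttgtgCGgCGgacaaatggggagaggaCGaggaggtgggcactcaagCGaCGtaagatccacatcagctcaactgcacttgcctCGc
FOXA3: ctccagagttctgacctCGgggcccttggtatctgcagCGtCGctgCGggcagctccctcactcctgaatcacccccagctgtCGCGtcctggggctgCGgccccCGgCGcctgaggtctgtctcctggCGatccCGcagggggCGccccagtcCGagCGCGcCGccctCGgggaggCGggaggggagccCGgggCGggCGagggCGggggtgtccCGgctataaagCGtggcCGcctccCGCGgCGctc
GATA6: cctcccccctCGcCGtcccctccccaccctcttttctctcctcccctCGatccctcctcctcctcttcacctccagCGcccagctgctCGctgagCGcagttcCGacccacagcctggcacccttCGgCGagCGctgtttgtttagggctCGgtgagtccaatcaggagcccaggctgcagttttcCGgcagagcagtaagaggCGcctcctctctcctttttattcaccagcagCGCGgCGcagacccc
All 3 promoters were richer in G and C than the median of 58.0% over 35116 promoters of the same length, with 67.2% in FOXA1, 75.2% in FOXA3 and 64.4% in GATA6. FOXA1 held 26 CG pairs, FOXA3 28 and GATA6 16, against a median of 11. The letters ATTGAT, a core of the ONECUT motif, were searched on both strands, as were TGTTTAC for FOXA and either AGATAA or TGATAA for GATA. None was in these 3 windows. Over all promoters of this length, 5.58% held the ONECUT letters, 2.98% the FOXA letters and 14.6% a GATA form.

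The 5 loci together held 39 regions with more signal in the knockout and 40 with more in control, and the balance changed along the course. At ESC, 4 regions were higher in the knockout and 8 in control. At DE, 12 were higher in the knockout and 1 in control. The GT lists gave 8 for the knockout and 4 for control. The PE lists gave 5 for the knockout and 21 for control, while those of PP gave 10 for the knockout and 6 for control. Over all regions listed in the genome, the share higher in control was 42.6% for ESC, 37.2% for DE, 27.0% for GT, 56.1% for PE and 11.3% for PP. Over the 5 loci, in the same order of stages, it was 66.7%, 7.69%, 33.3%, 80.8% and 37.5%. At PP all 6 regions higher in control were at FOXA3, and the other 4 loci had 0 regions higher in control at that stage. With scaled ratios 4 of the 79 regions turned, all at PP, where 6 regions were then higher in the knockout and 10 in control. The 4 were 1 at FOXA2, 2 at GATA4 and 1 at GATA6. The PP medians come mostly from regions higher in the knockout, so these turns do not show a difference in depth.

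**Figure D1:**
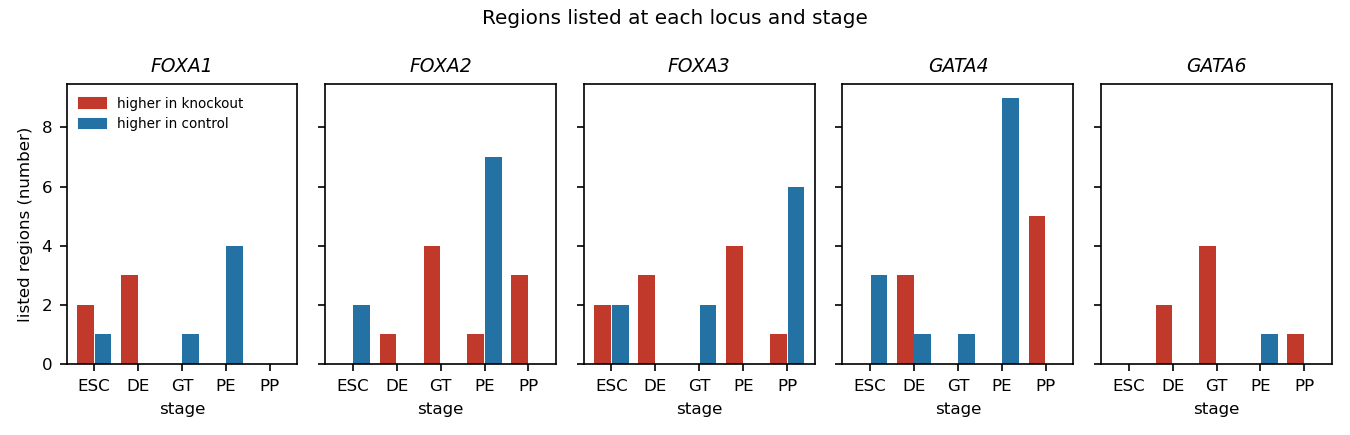
Number of listed regions (vertical axis) at each locus by stage (horizontal axis), with red bars for regions higher in the HNF6 knockout and blue bars for regions higher in control. The tallest bar is GATA4 at PE, where the knockout has 0 and control 9.

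**Figure D2:**
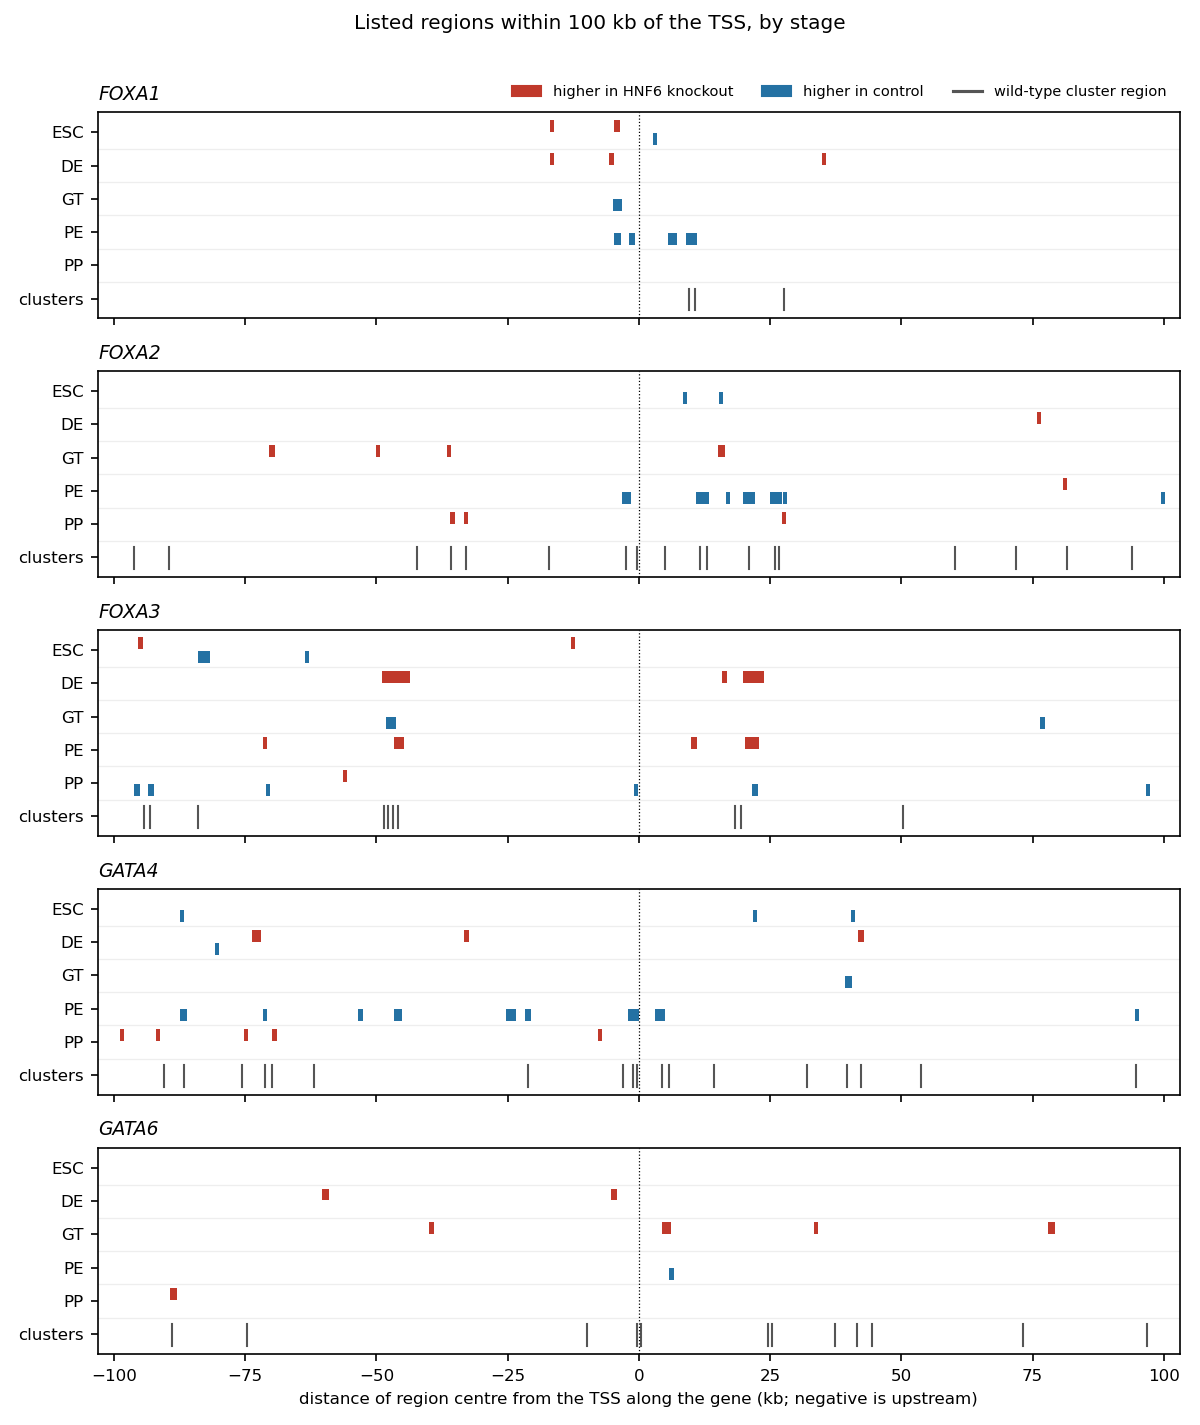
Position of each listed region by the distance of its centre from the TSS along the gene (kb), in 1 row per stage, with red for higher in the knockout, blue for higher in control and grey ticks for wild-type cluster regions. Regions under 0.8 kb are drawn 0.8 kb wide. The farthest FOXA1 region is centred 35.2 kb from the TSS, while those of FOXA3 and GATA4 run through most of the window.

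Most differences at the loci were moderate. The median size of the log2 ratio was 0.72 over the 79 regions, with a range of 0.27 to 2.69, and 20 regions reached a change of at least 2-fold. In 49 of the 79 regions knockout and control values were fully separated, 25 from knockout lists and 24 from control lists. Over all listed regions, 78.5% were separated in this way, and the difference between the shares was not tested. At PE the 21 control-list members had a median log2 ratio of -0.51, against -0.94 in the whole control PE list. The 10 knockout-list members at PP had a median of 0.96, against 1.08 in the whole knockout PP list.

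At FOXA2, 18 regions were listed, 9 in each direction, and 7 of the 9 higher in control were PE regions. The FOXA2 TSS is transcribed towards lower coordinates, and 6 of these 7 PE regions lay downstream of it, between 12.2 and 99.9 kb, on the side where RefSeq places the long noncoding RNA gene LINC00261. The leading one was centred 21.0 kb downstream at chr20:22542801-22545200. It had values of 605, 522 and 458 in knockout cells and 1005, 979 and 1178 in control cells. Every knockout value was below every control value, the log2 ratio was -0.99 ± 0.14 (SE, n = 3 each) and the -log10 p in the authors' deposited table was 36.4. In the authors' deposited table of control PE regions, 47 of 7111 (0.661%) had a higher -log10 p.

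A second PE region at FOXA2, chr20:22536751-22537450 and 27.9 kb downstream, had 144, 94 and 125 in the knockout against 241, 305 and 220 in control (log2 ratio -1.07 ± 0.23). Control values were again all the higher ones. Next to the FOXA2 TSS, chr20:22566451-22568250, centred 2.4 kb upstream, had 895, 782 and 693 in the knockout and 924, 1189 and 945 in control. This was a smaller difference (-0.37 ± 0.16, scaled -0.13) without overlap of the values. The other 4 PE regions higher in control had log2 ratios of -0.36 to -2.69. The largest of these, named after its values were seen, was a 150 bp region, chr20:22547951-22548100, with 3, 0 and 12 in the knockout and 39, 34 and 40 in control, values far below those of its neighbours. One PE region went the other way, chr20:22483351-22484250 at 81.2 kb downstream, with 438, 296 and 467 in the knockout and 207, 309 and 200 in control (0.74 ± 0.29, overlapping values).

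**Figure D3:**
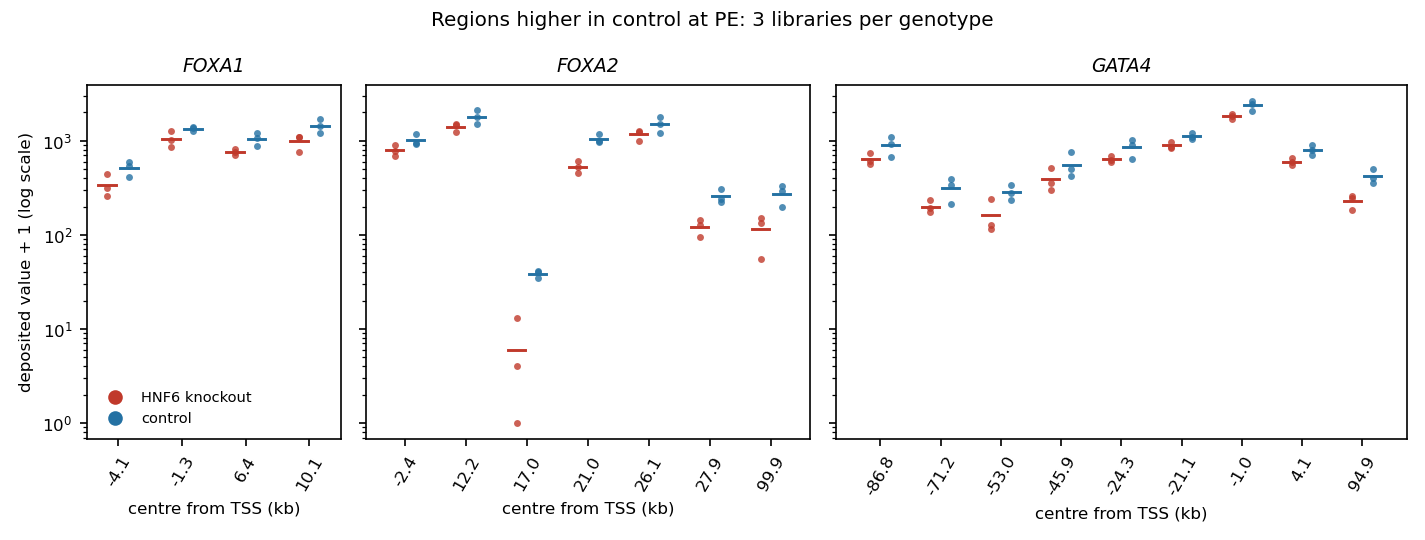
Deposited values plus 1 (vertical axis, log scale) of the regions higher in control at PE at FOXA1, FOXA2 and GATA4, ordered by the distance of their centre from the TSS (kb, horizontal axis). Points are the 3 libraries of each genotype, knockout in red left of control in blue, and bars are means. The knockout mean is below the control mean in all 20 regions because they were taken from the control list. The 150 bp region of FOXA2 stands far below the others.

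At the other stages FOXA2 regions leaned to the knockout except at ESC. Regions listed within 5 Mb on either side, outside the window, leaned the same way. Of these, 61.0% at ESC, 33.3% at DE, 15.5% at GT and 7.97% at PP were higher in control. At ESC, chr20:22555851-22556550, 8.8 kb downstream, had 177, 104 and 100 in the knockout and 335, 166 and 176 in control (-0.82 ± 0.42). The second ESC region, chr20:22549051-22549800, had 238, 205 and 130 in the knockout and 287, 228 and 401 in control (-0.67 ± 0.35). Both had overlapping values. The single DE region, chr20:22488401-22489100, lay 76.2 kb downstream and had 215, 140 and 192 in the knockout against 106, 44 and 120 in control (1.01 ± 0.49, no overlap).

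At GT, 4 FOXA2 regions were higher in the knockout. The one with the highest -log10 p, chr20:22614501-22614900 at 49.7 kb upstream, had 55, 93 and 92 in the knockout and 14, 23 and 29 in control (1.82 ± 0.38, no overlap). The region chr20:22548701-22549950, 15.7 kb downstream, had 340, 202 and 306 in the knockout and 125, 161 and 213 in control (0.76 ± 0.32, scaled 0.21, overlapping values). It covers the ESC region at the same place that was higher in control. At 36.1 kb upstream, chr20:22600751-22601500 had 217, 64 and 156 in the knockout and 88, 64 and 50 in control (1.10 ± 0.57, scaled 0.53), and the lowest knockout value lay inside the control range.

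The same upstream place was listed at PP, where chr20:22600001-22601050 had 366, 317 and 345 in the knockout and 256, 100 and 201 in control (0.88 ± 0.41, no overlap), but its scaled ratio was -0.01. At PP the region chr20:22537151-22537550, 27.6 kb downstream, had 135, 60 and 67 in the knockout and 18, 29 and 18 in control (1.96 ± 0.42). It overlaps the PE region at 27.9 kb, which was lower in the knockout. All 3 PP regions at FOXA2 were higher in the knockout with no overlap of the deposited values, and 2 were so with scaled ratios (1.07 and 0.27).

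At FOXA1, 11 regions were listed, and their direction split by stage. The regions at ESC and DE were higher in the knockout in 5 of 6 cases, and all 5 regions at GT and PE were higher in control. Of regions listed within 5 Mb on either side, outside the window, 6.52% at ESC, 37.0% at DE, 42.1% at GT and 93.1% at PE were higher in control. No FOXA1 region was listed at PP. The PE region with the highest -log10 p in the authors' deposited table (17.6) was chr14:38052851-38054900, centred 10.1 kb downstream, with 762, 1100 and 1099 in the knockout and 1201, 1442 and 1710 in control. Its log2 ratio was -0.56 ± 0.23, with no overlap. Next to the TSS, chr14:38064651-38065950, centred 1.3 kb upstream, had 1278, 861 and 1019 in the knockout and 1270, 1373 and 1404 in control (-0.36 ± 0.17, scaled -0.12), and 1 knockout value lay inside the control range. At ESC the 1 region higher in control, chr14:38060551-38061300 at 3.1 kb downstream, had 365, 412 and 514 in the knockout and 694, 635 and 512 in control (-0.51 ± 0.19, overlapping values).

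About 4 kb upstream of FOXA1, 1 place was listed at 4 stages, with the direction reversed between the early and the later ones. At ESC, chr14:38067551-38068650 had 430, 344 and 527 in the knockout and 297, 330 and 240 in control (0.58 ± 0.22). At DE, chr14:38068751-38069650 had 359, 361 and 269 in the knockout and 265, 146 and 208 in control (0.67 ± 0.29). Both had no overlap. At GT, chr14:38067301-38068900 had 359, 255 and 331 in the knockout and 548, 500 and 545 in control (-0.75 ± 0.15, no overlap). At PE, chr14:38067501-38068750 had 313, 447 and 259 in the knockout and 409, 597 and 539 in control (-0.60 ± 0.28, overlapping values). The ESC, GT and PE regions share most of their length, while the DE region touches only the right end of the GT region.

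A second FOXA1 place, 16.5 kb upstream, was higher in the knockout at both ESC and DE. At ESC, chr14:38080151-38080900 had 307, 239 and 249 in the knockout and 86, 112 and 136 in control. Its log2 ratio of 1.24 ± 0.22 and -log10 p of 12.6 in the authors' deposited table made it the only knockout-list member with a -log10 p of at least 10. At DE, chr14:38080201-38080750 had 52, 204 and 172 in the knockout and 109, 64 and 36 in control (1.02 ± 0.76), where the first knockout value lay below 2 of the control values. The remaining FOXA1 regions were a DE region 35.2 kb downstream (1.50 ± 0.61) and a PE region 6.4 kb downstream (-0.46 ± 0.15).

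FOXA3 differed from the other loci at the last stages, with 4 knockout-list regions and 0 control-list regions at PE, and 1 knockout-list region and 6 control-list regions at PP. In all it had 20 regions, 10 in each direction. Other genes lie close by, as at the other loci: RefSeq places SIX5, DMPK, DMWD, RSPH6A and SYMPK on the upstream side and IRF2BP1, MYPOP, NANOS2 and NOVA2 on the downstream side, so a region in it cannot be assigned to FOXA3 from position alone. The region nearest to the FOXA3 TSS, chr19:46366201-46366800, centred 0.5 kb upstream, was listed at PP alone. It had 877, 901 and 939 in the knockout and 908, 1362 and 1183 in control (-0.35 ± 0.17, scaled -1.20), with overlapping values.

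Of 4 places at the FOXA3 locus that were listed at more than 1 stage, all 4 changed direction. The broadest lay about 46 kb upstream. At DE, chr19:46318051-46323300 had 2627, 2118 and 2552 in the knockout and 2375, 1793 and 1864 in control (0.27 ± 0.16, scaled 0.03, overlapping values). At GT, chr19:46318801-46320700 had 670, 640 and 768 in the knockout and 1004, 907 and 1009 in control (-0.49 ± 0.09). At PE, chr19:46320301-46322350 had 1421, 1084 and 1006 in the knockout and 990, 829 and 767 in control (0.44 ± 0.19). The GT and PE regions share 400 bp, and the genotypes did not overlap in either.

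About 22 kb downstream of FOXA3, chr19:46386851-46390750 had 1644, 1696 and 1483 in the knockout and 1613, 1120 and 1143 in control at DE (0.32 ± 0.18). At PE, chr19:46387201-46389950 had 1930, 1700 and 1488 in the knockout and 1562, 1310 and 1201 in control (0.33 ± 0.16). At PP, chr19:46388551-46389650 had 463, 408 and 513 in the knockout and 786, 645 and 503 in control (-0.48 ± 0.21). Values of the genotypes overlapped at all 3 stages, and the scaled ratios were 0.08 at DE, 0.56 at PE and -1.35 at PP.

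Farther upstream of FOXA3, chr19:46295401-46296100 at 71.2 kb had 425, 489 and 491 in the knockout and 296, 323 and 350 in control at PE (0.53 ± 0.10). At PP, chr19:46296051-46296650 had 698, 699 and 630 in the knockout and 826, 824 and 952 in control (-0.36 ± 0.08). Both had tight replicates and no overlap, and they share 50 bp. At about 95 kb, chr19:46271601-46272500 had 824, 781 and 573 in the knockout and 629, 486 and 521 in control at ESC (0.41 ± 0.20). At PP, chr19:46270751-46272000 had 606, 819 and 766 in the knockout and 887, 794 and 1135 in control (-0.36 ± 0.20). Values overlapped at both stages.

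The other leading regions of the FOXA3 locus lay upstream. At PP, chr19:46273501-46274650, 92.9 kb upstream, had 1819, 1635 and 1931 in the knockout and 2363, 2065 and 2140 in control (-0.29 ± 0.09, no overlap). The 1 PP region higher in the knockout, chr19:46310901-46311150, had 40, 55 and 62 in the knockout and 17, 15 and 6 in control (1.96 ± 0.47). At ESC, chr19:46283051-46285250 had 914, 958 and 837 in the knockout and 1442, 1015 and 1127 in control (-0.40 ± 0.16, no overlap). The other 6 FOXA3 regions had log2 ratios between 0.50 and 2.07 in size.

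GATA4 had the most listed regions, 22, with 8 higher in the knockout and 14 in control. All 9 regions at PE were higher in control, and all 5 at PP were higher in the knockout, though only 3 of these 5 with scaled ratios. Of regions listed within 5 Mb on either side, outside the window, 91.7% at PE and 10.1% at PP were higher in control. The shares over the genome were 56.1% and 11.3%. RefSeq also lists LINC00208, BLK, NEIL2, FDFT1 and CTSB among the neighbours of GATA4, so regions in the window too cannot be assigned to GATA4 from position alone. The leading PE region, chr8:11559951-11562100, covers the TSS. It had 1831, 1724 and 1949 in the knockout and 2071, 2469 and 2673 in control, with no overlap, a log2 ratio of -0.39 ± 0.12 and a -log10 p of 15.2 in the authors' deposited table. Its scaled ratio was -0.14. Its knockout and control values were the highest of any PE region at the locus. The other 8 PE regions higher in control lay from 86.8 kb upstream to 94.9 kb downstream, with log2 ratios of -0.32 to -0.85, and 3 of them had values that did not overlap.

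The PP regions of GATA4 lay 7.4 to 98.5 kb upstream, with log2 ratios of 0.72 to 1.07, and none of them overlapped between genotypes. Their scaled ratios ran between -0.16 and 0.21. The one with the highest -log10 p, chr8:11463151-11463900 at 98.5 kb, had 206, 153 and 191 in the knockout and 53, 129 and 84 in control (1.04 ± 0.39). At DE, chr8:11488301-11490050, 72.8 kb upstream, led the 3 regions higher in the knockout, with 616, 497 and 501 in the knockout and 315, 310 and 412 in control (0.64 ± 0.17, no overlap). The only DE region of the 5 loci higher in control, chr8:11481551-11481850, had low values of 7, 16 and 22 in the knockout and 32, 71 and 68 in control (-1.86 ± 0.58).

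Both GATA4 places that were listed at 2 stages were higher in control each time. At 86.9 kb upstream, chr8:11474601-11475100 had 84, 30 and 44 in the knockout and 115, 118 and 115 in control at ESC (-1.12 ± 0.43, no overlap). At PE, chr8:11474601-11475850 had 564, 614 and 748 in the knockout and 670, 919 and 1104 in control (-0.48 ± 0.24, overlapping values). Downstream, chr8:11602451-11603150 had 39, 63 and 68 in the knockout and 178, 171 and 66 in control at ESC (-1.27 ± 0.52, overlapping values). At GT, chr8:11601301-11602550 had 297, 128 and 289 in the knockout and 396, 345 and 481 in control (-0.77 ± 0.42, no overlap).

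GATA6 had the fewest listed regions, 8, of which 7 were higher in the knockout and 1 in control. Of regions listed within 5 Mb on either side, outside the window, 60.6% at DE, 33.3% at GT, 88.5% at PE and 3.57% at PP were higher in control. No GATA6 region was listed at ESC, and none lay within 2 kb of the TSS. At GT, 4 regions were higher in the knockout. The one with the highest -log10 p, chr18:19782601-19782950 at 33.8 kb downstream, had 63, 47 and 107 in the knockout and 13, 34 and 8 in control (1.92 ± 0.67, no overlap). At DE, chr18:19688601-19689950, 59.7 kb upstream, had 443, 213 and 287 in the knockout and 178, 102 and 296 in control (0.71 ± 0.54, overlapping values). The single PP region, chr18:19659651-19660900, had 356, 395 and 377 in the knockout and 257, 295 and 207 in control (0.57 ± 0.15, no overlap), but its scaled ratio was -0.28.

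The only GATA6 region higher in control overlapped one that went the other way a stage earlier. At GT, chr18:19753351-19755150, 5.3 kb downstream, had 442, 359 and 407 in the knockout and 309, 210 and 243 in control (0.66 ± 0.18, scaled 0.11). At PE, chr18:19754651-19755700, 6.2 kb downstream, had 401, 285 and 275 in the knockout and 449, 403 and 632 in control (-0.63 ± 0.26, scaled -0.39). The regions share 500 bp, and neither stage showed overlap of the genotypes, though at PE the highest knockout and the lowest control value were 401 and 403. The other 3 GATA6 regions had log2 ratios of 0.69 to 0.92.

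Listed regions that share at least 1 base were then joined into places, giving 63 over the 5 loci. Of these, 12 (19.0%) were listed at more than 1 stage, against 12.9% of all places in the genome. In 8 of the 12 the direction differed between stages, in 2 the knockout was higher each time and in 2 control was higher each time. Of all places in the genome that were listed at more than 1 stage, 48.0% had both directions. The 8 places were 1 at FOXA1, 2 at FOXA2, 4 at FOXA3 and 1 at GATA6. Stages share no libraries, so the directions at different stages are separate measurements. The difference between stages was not tested. Without FOXA3, 4 of 8 such places had both directions.

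**Figure D4:**
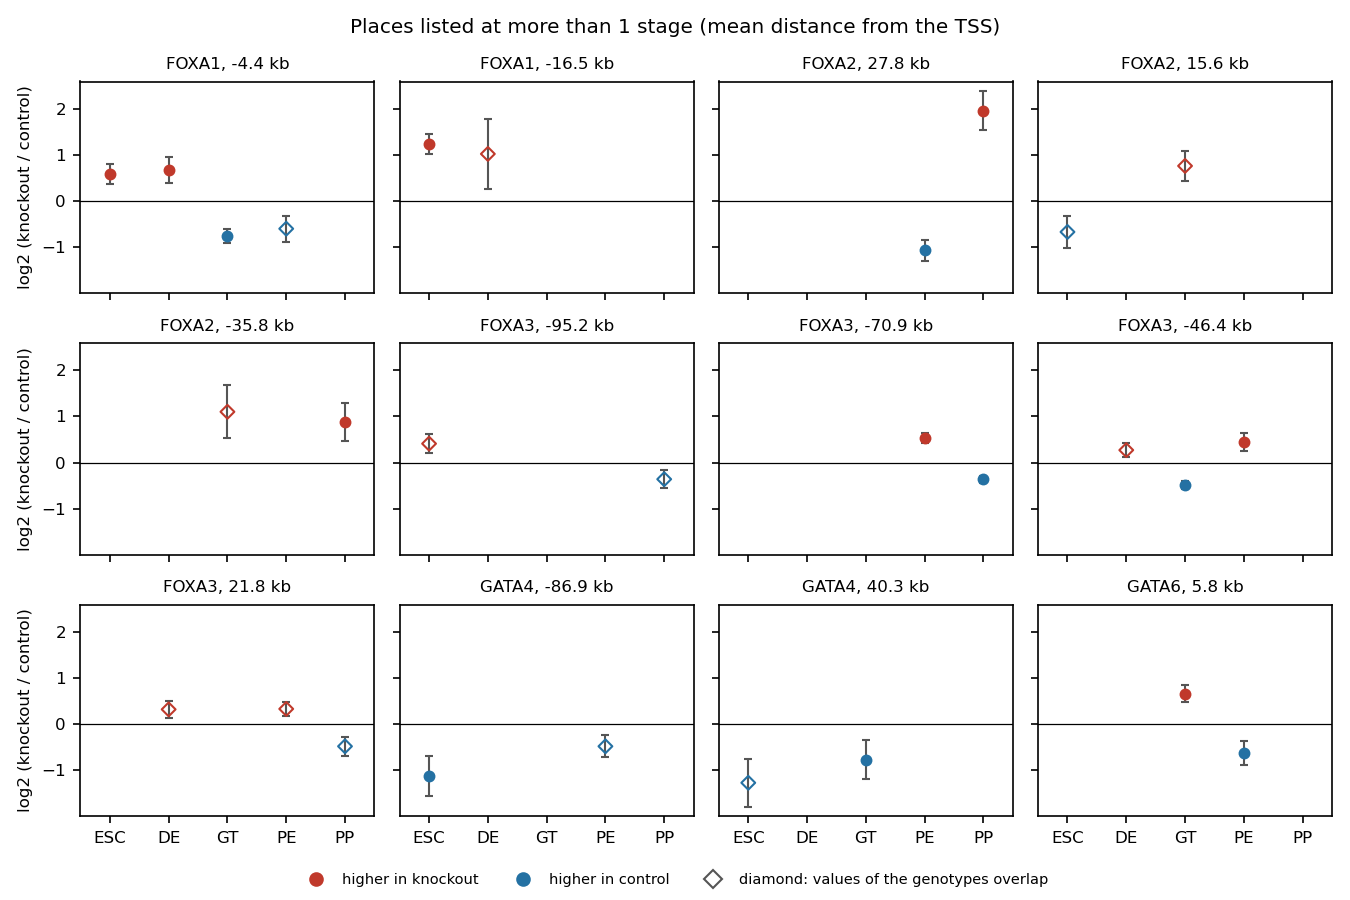
Log2 ratio of knockout over control (vertical axis, error bars are SE from 3 and 3 values) by stage (horizontal axis) for the 12 places listed at more than 1 stage, each titled by its gene and mean distance from the TSS. Circles mark values that do not overlap between genotypes and diamonds values that do. In 8 panels red and blue points lie on opposite sides of 0, while both GATA4 panels hold blue points only.

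The direction at each locus was set beside that of its surroundings, the listed regions within 5 Mb on either side outside the window. Around FOXA1, 2 PE regions were higher in the knockout and 27 in control, which is 93.1% higher in control. This share was 79.7% at PE around FOXA2 and 91.7% around GATA4, where the loci themselves had 87.5% and 100%. Around FOXA3 it was 17.6% at PE and 65.6% at PP, the order seen at the locus. Around GATA6 it was 33.3% at GT and 88.5% at PE. For FOXA2 the surroundings differed from the whole of chromosome 20, where 46.5% of PE regions were higher in control. A majority direction could be given for 22 pairs of locus and stage, and in 17 of them the surroundings had the same majority. The other 5 were FOXA1 at GT, FOXA3 at GT, GATA4 at ESC, GATA4 at GT and GATA6 at DE, each with 1 to 3 regions. Over all listed regions of the genome, the knockout had the majority at ESC, DE, GT and PP, and control at PE (56.1%). A shared majority is thus not particular to the surroundings, and no expected number of such pairs was computed. The part of the surroundings in the result at each locus was not tested.

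**Figure D5:**
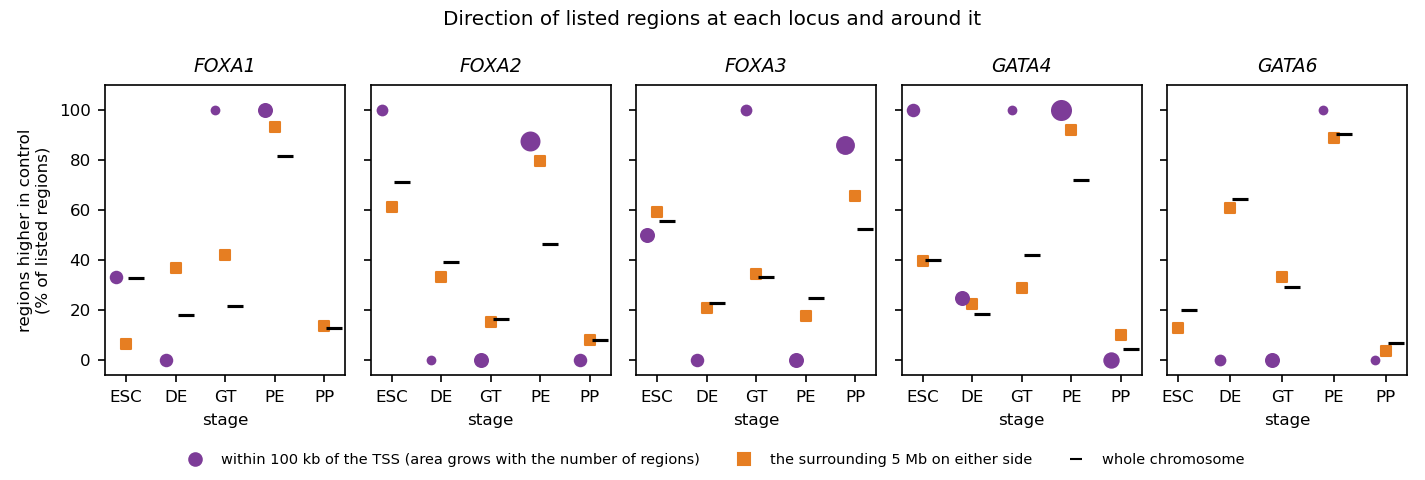
Share of listed regions higher in control (vertical axis, percent) by stage (horizontal axis) within 100 kb of the TSS (purple circles, with area growing with the number of regions), in the 5 Mb on either side (orange squares) and on the whole chromosome (black dashes). At PE the orange points of FOXA1, FOXA2, GATA4 and GATA6 lie at 79.7% or more and that of FOXA3 at 17.6%, with the purple points on the same side.

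The number of listed regions was set beside 15174 tiles of 200 kb over the autosomes and chromosome X, a width equal to that of the window. Over all lists, 8.59% of tiles held at least the 18 regions of FOXA2, 5.69% at least the 22 of GATA4, 7.01% at least the 20 of FOXA3, 17.3% at least the 11 of FOXA1 and 25.1% at least the 8 of GATA6. Of regions higher in control at PE, 0.0989% of tiles held at least the 7 of FOXA2 and 0.0330% at least the 9 of GATA4. The 4 of FOXA1 were reached by 1.31% and the 1 of GATA6 by 30.7%, and FOXA3 had 0. Tiles include gene-poor DNA with little open chromatin, and a tile held 0.470 such regions on average.

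The number of wild-type cluster regions differed between the loci. FOXA2 and GATA4 had 18 cluster regions each, a number reached by 0.0989% of tiles, while GATA6 had 12 (0.685% of tiles), FOXA3 had 10 (1.38%) and FOXA1 had 3 (21.0%). The loci drew on different clusters, whose profiles the sources used here do not give. At FOXA2, 8 of 18 were in cluster 8 and 6 in cluster 4, which hold 12.3% and 11.7% of all cluster regions. At GATA6, 8 of 12 were in cluster 2 (11.4% of all cluster regions). At FOXA3, 5 of 10 were in cluster 1 (9.20%), and 4 of these lay together 45.8 to 48.6 kb upstream. GATA4 regions were spread over 8 of the 9 clusters, with 4 each in clusters 4, 8 and 9.

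Cluster regions within 1 kb of the TSS were present at 3 of the loci. At GATA6, one of cluster 2 centred 0.3 kb upstream and one of cluster 8 centred 0.4 kb downstream were in none of the lists. The FOXA2 cluster 8 region 0.4 kb upstream was in none either. The GATA4 cluster 6 region 0.4 kb upstream and the cluster 8 region 1.2 kb upstream were both inside the control PE region that covers the TSS.

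Among the 61 members from the clusters, 28 shared a base with a differential list, where the share over all cluster regions was 38.4%. The control PE list overlapped 15 of the 61, where the share over all cluster regions was 6.44%. These were 7 at GATA4, 6 at FOXA2 and 2 at FOXA1. They are not 15 separate listed regions, because neighbouring cluster regions can lie in the same one. Both at FOXA1 lay in chr14:38052851-38054900, and FOXA2 and GATA4 also had such neighbours. Within cluster 8, 6 of 17 members overlapped the control PE list (18.4% of the whole cluster), and within cluster 4, 3 of 13 (16.4% of the whole cluster). The long knockout PP list overlapped 4 of the 61, where the share over all cluster regions was 11.1%. At GATA6, 1 of 12 cluster regions overlapped any list, and all 8 of cluster 2 were in none.

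At the limit of the window, the outermost listed region inside it was the control PE region chr20:22464801-22465350 at FOXA2, whose near edge is 99.65 kb from the TSS, with 151, 55 and 134 in the knockout and 198, 331 and 290 in control. Just outside, 101.8 kb from FOXA2, the knockout PP region chr20:22666751-22667300 had 159, 196 and 218 in the knockout and 106, 26 and 45 in control. At GATA6 a knockout DE region 103.5 kb away had 120, 170 and 81 in the knockout and 72, 25 and 56 in control. At GATA4 a control PP region 104.2 kb away had 237, 224 and 193 in the knockout and 267, 381 and 397 in control. A window ending slightly farther out would have given GATA4 its first PP region higher in control.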

How the data were processed

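The labels put 30 ATAC-seq samples of HUES8 cells in 10 groups of 3. Per the submitters' processing notes, Bowtie2, MACS2 and hg19 were used, with no versions or roles. The differential caller, scaling between libraries and any shift of reads for the transposase are not stated in any source used here. The authors deposited lists of differential regions with a log2 ratio of control over knockout, 6 whole-number values and a -log10 p, and 9 lists of wild-type cluster regions, each 500 bp wide. In the 10 differential lists the first 3 values were read as knockout and the last 3 as control. This rests on the list names: the mean of the named genotype was the higher one with 0 exceptions in 89929 regions, and the deposited log2 values were recovered to within 5.0e-12. The cluster number of the file name was used, which differs from the one written inside.

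Regions were assigned, joined and summarised in Python 3.11.15, with figures drawn in matplotlib 3.10.9, and the code was tested on simulated data. No count model was run. Regions given with all values lay within 2 kb of a TSS, had the highest -log10 p of their locus, stage and direction, or lay in a place listed at more than 1 stage. The members, lists and rules were chosen with earlier results of these data known, and the comparison with the 5 Mb around each locus was added after seeing the values, as was scaling every member by library medians. RefSeq tables on GRCh38 gave promoters, strands and neighbouring genes, and no coordinate was moved between builds. The strands of FOXA2 and GATA4 are textbook knowledge. Without an hg19 annotation, regions were not placed in exons or introns.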

Additional observations from a re-analysis of the deposited data

Results flagged for a closer look

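At 5 places there were 6 pairs of stages with opposite directions and with all 3 values of one genotype above all 3 of the other at both stages. The pairs were picked for these traits, so the sign of each gap was set by the choice and its size may be inflated. Of all places in the genome listed at more than 1 stage, 48.0% had both directions. The share of such places with separated values at both stages is not given here. Other stages of the same places are not included, and values overlapped at PE at the FOXA1 place and at DE at the FOXA3 place about 46 kb upstream. The difference between stages was not tested. About 4 kb upstream of FOXA1 the log2 ratio of knockout over control was higher by 1.34 at ESC than at GT (0.58 and -0.75), over 1100 shared bp. At the same place it was higher by 1.42 at DE than at GT (0.67 and -0.75), but those regions share 150 bp. With values divided by library medians these differences were 1.86 and 1.74. The widest gap in the deposited values was at FOXA2, about 28 kb downstream, where the ratio was higher by 3.03 at PP than at PE (1.96 and -1.07), over 300 shared bp, and by 1.91 with values divided by library medians (1.07 and -0.84). At the GATA6 place 5 to 6 kb downstream it was higher by 1.29 at GT than at PE (0.66 and -0.63), and by 0.50 with values divided by library medians (0.11 and -0.39). At FOXA3 it was higher by 0.93 at PE than at GT about 46 kb upstream (0.44 and -0.49), and by 0.89 at PE than at PP about 71 kb upstream (0.53 and -0.36), where the regions share 50 bp. Divided by library medians, these became 1.71 and 2.01.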

How the results depend on the processing

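With a window of 50 kb the loci held 25 knockout-list and 26 control-list regions, and 39 cluster regions. With an authors' -log10 p of at least 10, 1 knockout-list region (FOXA1 at ESC) and 5 control-list regions (all at PE) were left, and 0 places at more than 1 stage, so 0 in both directions. With regions whose values do not overlap the numbers were 25 and 24. Midpoints (region counts), joining within 500 bp (places) and 50% cover (cluster regions in a list) kept those totals within 1.5 times. Leaving out the FOXA3 locus, added after seeing the data, left 4 of the 8 places with both directions and 0 PP regions higher in control. Of 48 log2 ratios, none changed sign with 0 or 10 added, with mean log2 values or with any 1 of the 6 values left out. An added constant cannot change the sign. The regions were listed for their difference, so the other settings could hardly do so and say little about robustness. With values divided by each library's median over the stage's listed regions, 23 moved by more than the replicate SD and 2 PP regions turned (4 of all 79 members), FOXA2 chr20:22600001 to -0.01 and GATA6 chr18:19659651 to -0.28. The mean of these medians was higher in the knockout by 0.88 (log2) at PP, 0.56 at GT and 0.25 at DE and 0.02 at ESC, and lower at PE (-0.24). These medians carry the balance of the lists, so the scaled ratios are not a depth correction. Depth is unknown and could not be weighed. No paired analysis was possible because the deposited values carry no replicate numbers.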
